A study of Hydractinia symbiolongicarpus with 45 samples.

Results

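The genes described here are 200 maternal mRNAs of the hydrozoan Hydractinia symbiolongicarpus that had not fallen by more than 0.5 log2 units at 4 h (hours post fertilization, h.p.f.), fell by 7 h and fell less in embryos treated with the transcription inhibitor Triptolide. They were chosen by measured values, out of 22022 gene models in all. TPM (a level in which each count is divided by the coding length of its gene model and scaled to the same total in every library) was computed without the histone cluster scaffold HyS0385 and without gene models whose counts were identical to those of another, and levels were compared as log2(mean TPM + 1). A gene qualified with at least 5 TPM in rRNA-depleted egg libraries, a poly(A)+ level at 4 h no more than 0.5 log2 units below the egg, a rRNA-depleted level in DMSO embryos at 7 h at least 1 log2 unit below the egg, and fewer TPM at 24 h than in the egg. Of 10069 maternal genes with 5 TPM or more, 600 passed, and the 200 with the greatest difference between Triptolide and DMSO in rRNA-depleted libraries were taken. One gene model, HyS0030.200, was left out by name. The remaining 400 are called the other candidates.

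An egg is loaded with maternal mRNA and protein, and its genome is silent through the first divisions. During the maternal-to-zygotic transition the embryonic genome is switched on and a large share of the maternal mRNA is removed. Removal usually begins with shortening of the poly(A) tail and ends with decay of the body of the mRNA. Some of the machinery is itself maternal, and some, such as microRNAs in several animals, has to be transcribed by the embryo. A block to transcription is thus a way to tell clearance that needs the embryo's transcription from clearance that does not. Triptolide stops initiation by RNA polymerase II.

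Whole wild-type embryos and eggs from crosses of breeder colonies 291-10 and 295-8 were sequenced from poly(A)+ RNA (25 libraries), which is captured by its tail, and after depletion of ribosomal RNA (18 libraries), which keeps RNA with or without a tail. Untreated eggs came from collection groups, here called clutches, A, C and D, embryos up to 4 h from A or from A and C, embryos at 5 and 6 h from B, and embryos at 7 h from B and, in poly(A)+ only, D. Planula larvae at 24, 48 and 72 h (clutches E and F) were sequenced in poly(A)+ only. Embryos in 20 µM Triptolide with 0.5% DMSO, or in 0.5% DMSO alone, were treated from 0.5 h and collected at 7 h in clutches D and G, and each RNA sample was split between the 2 library types. Libraries of whole embryos cannot tell fewer cells of a type from less RNA per cell.

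The poly(A)+ libraries held 3107733 to 32015981 counts, with a median of 16784259, and the rRNA-depleted ones 3503063 to 20464403, with a median of 11323843, and the clutch B libraries at 5 to 7 h were among the shallowest. The treatment was checked with 3 genes that the study lists as activated by the embryo. HyS0062.47, a forkhead-box transcription factor, had 502 and 540 TPM in the poly(A)+ DMSO libraries and 0.594 and 0.464 TPM with Triptolide. HyS0101.18, a predicted ammonium transporter, had 1036 and 1153 TPM against 1.10 and 1.15 TPM, and HyS0057.112, a likely Sp5 homologue, had 109 and 77.3 TPM against 1.61 and 1.39 TPM. The counts come with no gene names, and the reference table at hand matched none of the identifiers, so the 200 genes are given by identifier with no function. None of them is the Smaug gene, the metabotropic glutamate receptor HyS0020.263, Polynem, 1 of the 2 linker histone H1.4 genes or 1 of the 24 gene models in the study's domain table of predicted H4K20 methyltransferases, which is not a full list of that family.

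The values that chose the genes describe them and are not tested. In rRNA-depleted libraries the difference between Triptolide and DMSO ranged from 0.88 to 2.45 log2 units, with a median of 1.07. The fall from the egg to DMSO embryos had a median of -1.46 and that from the egg to Triptolide embryos a median of -0.37, so that a median of 74.0% of the log2 fall was absent with Triptolide (range 35.0% to 143%). In 16 of the 200 genes (8%) the Triptolide mean was at or above the egg mean, against 50.9% of maternal genes. It was so in 0 of the other candidates, which the rule fixes: they fell by at least 1 log2 unit and differed by at most 0.88. Among the other candidates the median share of the log2 fall absent with Triptolide was 44.2%. At the limit of the choice there was no gap. HyS0009.140, HyS0055.63 and HyS0072.39 were the last genes inside, at 0.89, 0.89 and 0.88 log2 units, and HyS0028.29, HyS0083.25 and HyS0037.50 the first outside, each at 0.88. In the edgeR fit of this contrast 178 of the 200 were called higher with Triptolide, as against 17.9% of all genes tested, which follows from the choice. Maternal genes as a whole also sat higher with Triptolide in this library type, with a median of 0.24 log2 units over 10069 genes.

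The 200 genes spanned egg levels from 5.02 to 3730 TPM in rRNA-depleted libraries (median 49.5) and from 0.298 to 5380 TPM in poly(A)+ libraries (median 40.8). Their coding lengths had a median of 1134 bases, against 1375.5 for the other candidates and 1392 for maternal genes. They lay on 88 scaffolds, and 8 of them stood beside another of the 200 in scaffold numbering. kallisto shares reads that match several transcripts out in fractions, and 75 of the 200 (37.5%) had a count that was not whole (over 0.001 counts from a whole number) in some library, against 24.2% of the other candidates and 27.4% of maternal genes. For such genes, near-identical copies may share reads and the level of each is uncertain.

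The 10 genes with the greatest rule difference were HyS0018.47, HyS3294.1, HyS0407.4, HyS0057.80, HyS0078.84, HyS0523.1, HyS0049.7, HyS0027.228, HyS0002.506 and HyS0026.147, and 7 of these 10 had fractional counts. HyS0049.7 was the least certain, with 0, 4.55 and 14.8 TPM in the rRNA-depleted egg libraries of clutches A, C and D. The 3 without fractional counts were clearer. HyS0026.147 had 347, 329 and 309 TPM in rRNA-depleted eggs, 81.5 and 44.5 TPM in DMSO embryos and 198 and 193 TPM with Triptolide. HyS0002.506 had 43.8, 51.5 and 45.2 TPM in eggs, 9.95 and 6.75 TPM with DMSO and 26.6 and 29.5 TPM with Triptolide. In both genes the Triptolide libraries lay between the egg and the DMSO libraries, with no overlap. HyS0018.47, first by the rule, had 8.84, 13.8 and 10.3 TPM in eggs, 0.419 and 0.304 TPM with DMSO and 7.67 and 5.25 TPM with Triptolide.

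**Figure D1:**
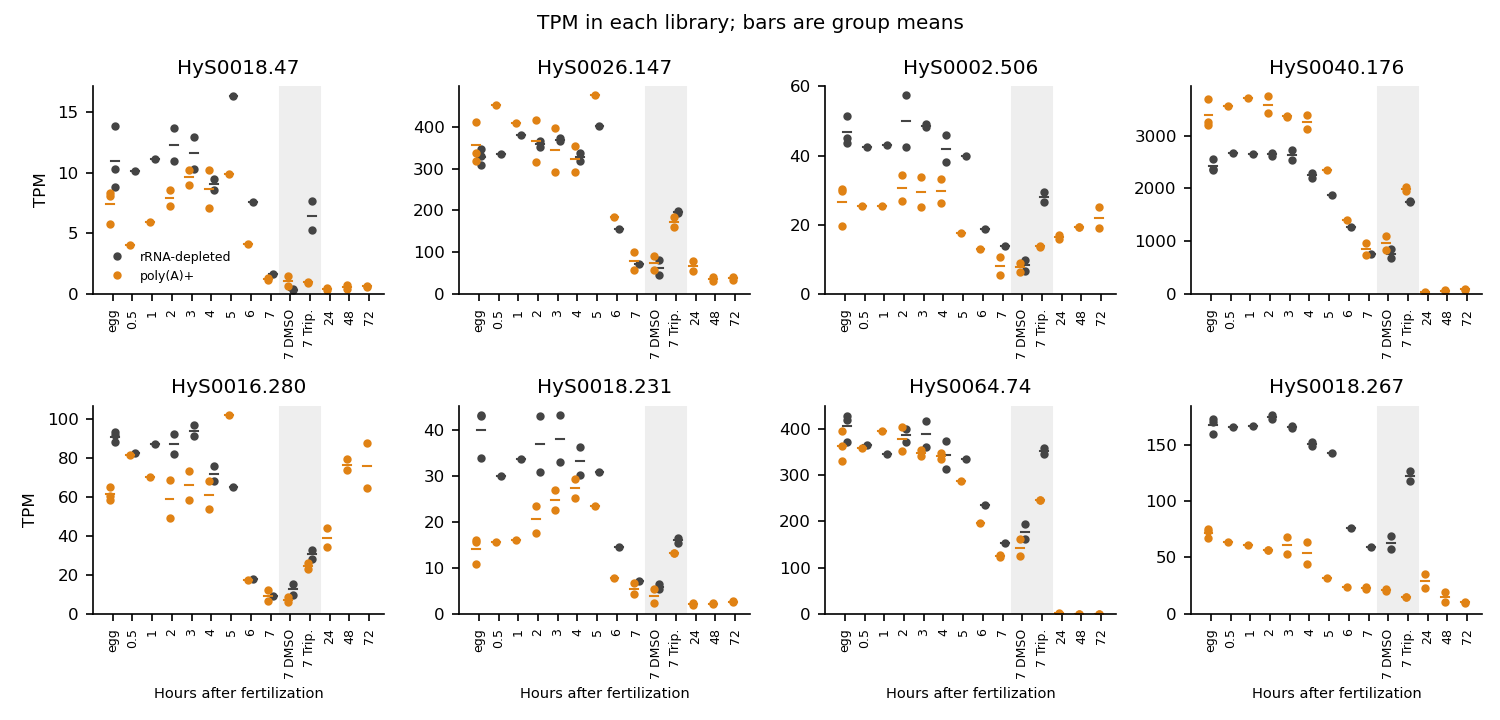
TPM of 8 of the 200 genes in each poly(A)+ (orange) and rRNA-depleted (dark) library by hours after fertilization, with points for libraries, bars for group means and grey shading over the treated embryos. In rRNA-depleted libraries both Triptolide points lie above both DMSO points in every panel, and in poly(A)+ libraries they do so in every panel but those of HyS0018.47 and HyS0018.267.

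A first question is whether the same embryos show the Triptolide difference in their poly(A)+ libraries, which the rule did not use, although the RNA is the same. Of the 200 genes, 117 rose with Triptolide relative to DMSO (edgeR, adjusted p under 0.05), as against 5.04% of the 18928 genes tested. A single gene was lower, whereas 18.9% of all genes were. The median difference of the 200 was 0.81 log2 units (quartiles 0.63 and 1.03), against -0.10 for all genes and 0.28 for the other candidates, of which 84 of 400 rose and 37 fell. In 177 of the 200 genes (88.5%) both Triptolide libraries lay above both DMSO libraries in TPM, which was so for 29.2% of the genes tested. It was so for 59.2% of the other candidates and 48.1% of maternal genes. The size of the difference varied with clutch: its median over the 200 genes was 0.61 in D, with 183 genes higher, and 1.00 in G, with 191 genes higher, on the log2(TPM + 1) scale. Of the other candidates 61.8% were higher in D and 78.2% in G, and of maternal genes 57.3% and 61.0%. Without the DMSO library of clutch G 46 genes were called, and without its Triptolide library 72. With clutch as a block the count was 134.

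Among the genes called whose libraries did not overlap, HyS0023.227 had the greatest change. It had 1.00 and 1.09 TPM in the poly(A)+ DMSO libraries and 4.05 and 4.65 TPM with Triptolide, a log2 fold change of 1.99 ± 0.36 (SE, n = 2 and 2, adjusted p = 0.000503 by edgeR). This gene had fractional counts. HyS0016.280 had 8.52 and 5.87 TPM with DMSO and 23.2 and 26.3 TPM with Triptolide (log2 fold change 1.75 ± 0.31, adjusted p = 0.000357). HyS0018.231 had 5.33 and 2.43 TPM against 13.3 and 13.2 TPM (1.75 ± 0.28, adjusted p = 0.000136). This gene had fractional counts in 12 libraries, and its fold change was 2.37 without the DMSO library of clutch D. Both Triptolide libraries of HyS0016.280 were below its 3 poly(A)+ egg libraries, at 58.6 to 65.1 TPM, whereas those of HyS0018.231 were within the range of its egg libraries, 10.8 to 16.1 TPM.

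HyS0018.267 was the exception. Its poly(A)+ libraries had 22.4 and 20.6 TPM with DMSO and 14.9 and 14.9 TPM with Triptolide, a log2 fold change of -0.57 ± 0.20 (adjusted p = 0.0442). Its rRNA-depleted libraries had 68.7 and 57.5 TPM with DMSO and 118 and 127 TPM with Triptolide, which is how the rule came to include it. The call was lost with clutch as a block, under library size alone, without a filter and without any 1 of the 4 libraries, at fold changes from -0.60 to -0.53. The other genes furthest against the trend were HyS0065.27, at 1.10 and 1.17 TPM with DMSO and 0 and 0.861 TPM with Triptolide (log2 fold change -1.41 ± 1.24, adjusted p = 0.46), and HyS3947.1, at 10.9 and 8.46 TPM against 6.37 and 8.12 TPM (-0.46 ± 0.76, adjusted p = 0.739). Neither passed the test. HyS0018.47, first by the rule, did not pass it either: its poly(A)+ libraries had 0.622 and 1.51 TPM with DMSO and 0.936 and 0.974 TPM with Triptolide (-0.24 ± 0.49, adjusted p = 0.806). The difference between library types in the response was not tested, since the rRNA-depleted response chose the genes.

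Untreated 7 h embryos were not used by the rule and serve as a second control, compared after the first results were seen. The Triptolide RNA samples are those that ranked the genes, so the outcome follows in part from the choice. Against the untreated poly(A)+ libraries of clutches B and D, 130 of the 200 genes were higher with Triptolide (8.86% of all genes), with a median of 0.94 log2 units. Of the other candidates 26.2% were higher, and of maternal genes 15.9%. With Triptolide 110 of the 200 genes were higher than in both DMSO and untreated embryos, a count for which no share over all genes was taken. Within clutch D, the median of Triptolide over untreated was 0.87 log2 units and that of DMSO over untreated was 0.25. In that clutch 188 genes were higher with Triptolide than untreated and 163 were higher with DMSO than untreated. Of the other candidates 268 and 256 of 400 were higher in these 2 ways, and of maternal genes 5710 and 5245 of 10069. The DMSO library of clutch D thus sat between the untreated and the Triptolide library, with 1 library each. Over maternal genes the median of DMSO over untreated was 0.0087.

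**Figure D2:**
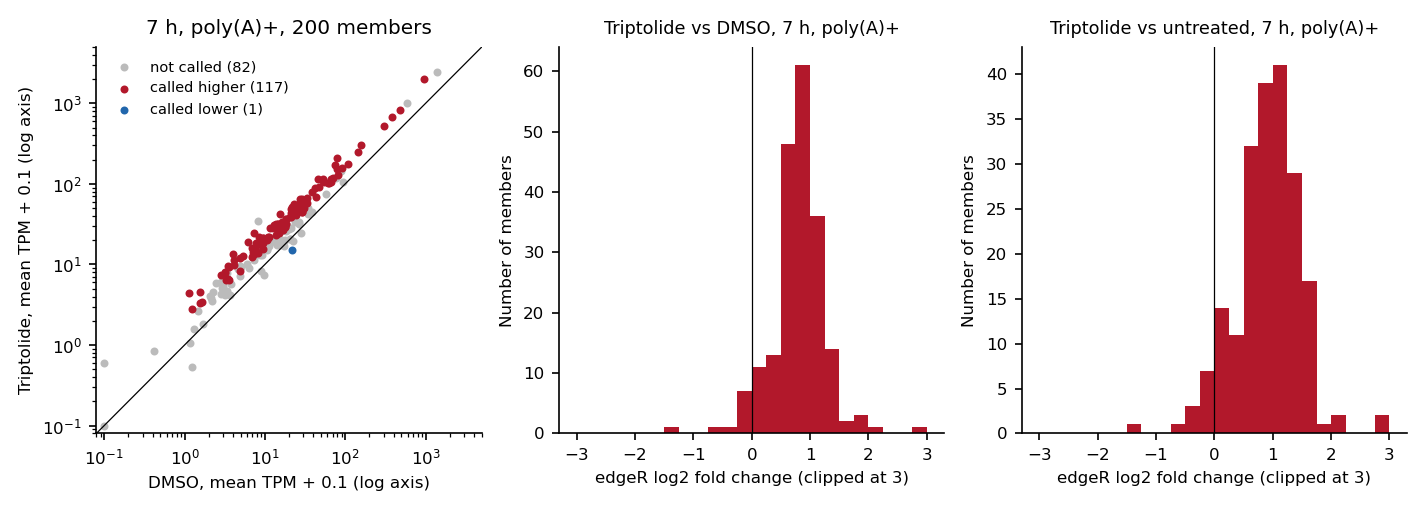
Poly(A)+ level of the 200 genes at 7 h with DMSO and with Triptolide (left, mean TPM + 0.1 over 2 libraries each, log axes, line of equal level), and numbers of genes by edgeR log2 fold change of Triptolide against DMSO (middle) and against untreated embryos (right), values beyond 3 placed at 3. Most points lie above the line: 117 genes were called higher and 1 lower, and the medians of the histograms are 0.81 and 0.94.

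With Triptolide a share of these mRNAs still fell below their earlier level. Compared with untreated embryos at 3 h, a stage outside the rule, 74 of the 200 genes were lower in poly(A)+ libraries of Triptolide embryos at 7 h (11.4% of all genes were lower) and 0 were higher (2.91% of all genes were higher). At an unadjusted p under 0.05, 107 genes were lower and 1 was higher, and DESeq2 called 96 lower. The median change was -0.63 log2 units, against -1.55 for untreated embryos over the same interval. Of the 117 genes that rose relative to DMSO, 49 were also lower than at 3 h and 68 were not called different from it in that direction. This count leaned on single libraries: 34 genes were called without the Triptolide library of clutch D, 47 without that of clutch G and 21 with clutch as a block, where clutches A and C stand on one side and D and G on the other. Among the other candidates 231 of 400 (57.8%) were lower than at 3 h, and among maternal genes 2067 of 10069 (20.5%). The 200 were ranked above the other candidates by Triptolide over DMSO in the same RNA samples. Their smaller share than that of the other candidates thus follows largely from the choice.

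The second question is when the fall takes place in untreated embryos. From the egg to 4 h the poly(A)+ level, which the rule limited only downwards, changed by -0.50 to 1.56 log2 units, with quartiles of -0.21 and 0.23, so that some genes rose. HyS0057.80, at the upper end, had 9.28, 6.19 and 3.61 TPM in eggs and 24.9 and 16.6 TPM at 4 h, and it had fractional counts. HyS0083.11, named after its values were seen, had 140, 144 and 163 TPM in eggs and 321 and 379 TPM at 4 h. In rRNA-depleted libraries none changed from 2 to 4 h (2.67% of all genes changed), with a median of -0.04 log2 units. Of the 425 genes called over all, 374 were higher. Of 10069 maternal genes only 5 were higher and 50 lower, and of the other candidates 0 changed. A count of 0 thus does not set the 200 apart from maternal genes. For none of the 200 was the unadjusted p under 0.05, and DESeq2 called none. With clutch as a block, 3 were called: HyS0006.398 and HyS0048.119, which are among the 5 most abundant in the egg, and HyS0035.17, named after its result was seen, with 2 of the 3 lower and 1 higher. HyS0035.17 had fractional counts and 20.4, 1.78 and 0.258 TPM in the rRNA-depleted eggs of clutches A, C and D. In poly(A)+ libraries none rose from 2 to 3 h (0% of all genes did), with a median of 0.03. At an unadjusted p under 0.05, 2 of the 200 differed there, and DESeq2 called none of them.

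From 5 to 6 h the median fell in both library types, within the same clutch B. Relative to the egg, the median of the 200 genes in poly(A)+ libraries was -0.12 log2 units at 5 h, -0.93 at 6 h and -1.50 at 7 h. In rRNA-depleted libraries it was -0.19, -0.91 and -1.52. The library types moved side by side, which follows in part from the choice. The rule left out genes whose poly(A)+ level had fallen by more than 0.5 log2 units at 4 h. By 5 h 16 genes by their poly(A)+ level and 7 by their rRNA-depleted level had fallen to 0.5 or less of their mean TPM at 3 h. That was 8% and 3.5% of the 200, near the 4.75% and 3.5% of the other candidates and 5.76% and 2.74% of maternal genes. By 6 h 106 (53.0%) and 91 (45.5%) had, and by 7 h 172 (86.0%) and 164 (82.0%) had. Of the other candidates 34.2% and 35.5% had by 6 h, and 57.8% and 80.2% by 7 h. Of maternal genes 10.0% and 10.7% had by 6 h, and 14.2% and 20.1% by 7 h. The rRNA-depleted share of the 200 at 7 h was thus near that of the other candidates. Stages here have 1 library each except poly(A)+ at 7 h, and the difference between library types was not tested.

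**Figure D3:**
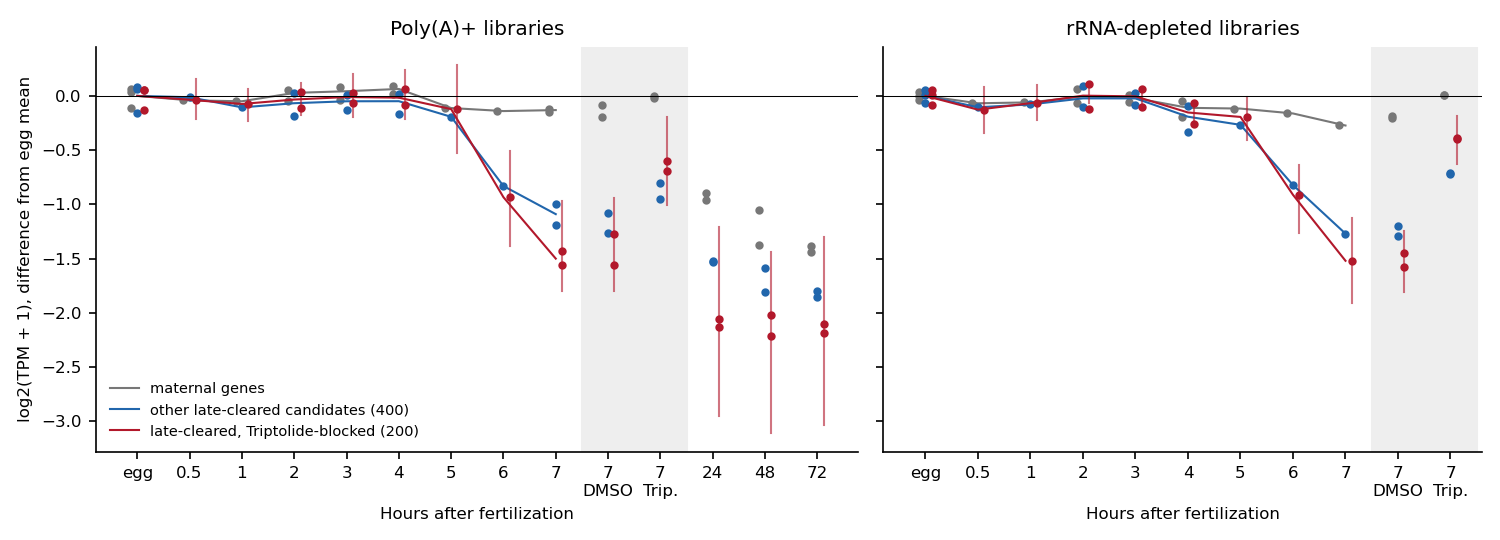
Median difference of log2(TPM + 1) from the egg mean in poly(A)+ (left) and rRNA-depleted (right) libraries by hours after fertilization, with a point per library, lines through stage medians, red bars for the quartiles of the 200 genes and grey shading over treated embryos at 7 h. The red line stays near 0 to 4 h and reaches -1.50 (poly(A)+) and -1.52 (rRNA-depleted) at 7 h, and the Triptolide points lie above the DMSO points in both panels. The rule limited the poly(A)+ fall at 4 h, required the rRNA-depleted fall with DMSO and ranked genes by Triptolide over DMSO in rRNA-depleted libraries.

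The step from 5 to 6 h was tested within clutch B after the results were seen. In rRNA-depleted libraries 66 of the 200 genes fell (5.45% of all genes fell), with a median of -0.81 log2 units. In poly(A)+ libraries 13 fell (0.328% of all genes fell), with a median of -0.82, and DESeq2 called 59. From 6 to 7 h in rRNA-depleted libraries the median was -0.56 and edgeR called none of the 200 lower (0.00627% of all genes), although 73 were lower at an unadjusted p under 0.05, DESeq2 called 11 and the fit with clutch as a block called 41. These tests set 1 library against 1 and take its spread from the replicated stages. From 5 to 6 h the medians of the other candidates were -0.64 (rRNA-depleted) and -0.66 (poly(A)+), and those of maternal genes -0.11 and -0.01. The fall from 5 to 6 h was thus shared with the other candidates.

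Over the whole interval most of the 200 genes fell, which follows largely from the choice. The rule required a fall by 7 h in DMSO embryos and allowed little poly(A)+ fall by 4 h. In rRNA-depleted libraries 153 of the 200 genes were lower at 7 h (clutch B) than at 4 h (clutches A and C), as against 18.8% of all genes, and none was higher, with a median of -1.50 log2 units (quartiles -1.91 and -1.13). None was higher at an unadjusted p under 0.05 or by DESeq2 either. RLE size factors raised the median of all genes by 0.17 log2 units and gave 146 genes. Over all genes they moved the share of higher among the calls from 39.2% to 56.0%, and DESeq2 moved it to 52.7%. Relative to the median of all genes, that of the 200 was -1.43 with TMM and -1.39 with RLE. In poly(A)+ libraries 176 of the 200 were lower at 7 h (clutches B and D) than at 3 h (clutches A and C), as against 15.8% of all genes, with a median of -1.55. Stage and clutch differ together in both comparisons. Within clutch B, with 1 library a stage, the rRNA-depleted median relative to the egg went from -0.19 at 5 h to -1.52 at 7 h. For the other candidates it went from -0.27 to -1.27 and for maternal genes from -0.12 to -0.27. In poly(A)+ libraries of that clutch the median of the 200 went from -0.12 to -1.43. There the other candidates went from -0.19 to -0.99 and maternal genes from -0.11 to -0.15. Of the other candidates, which met the same conditions, 320 and 332 of 400 (80.0% and 83.0%) fell in the 2 comparisons, with medians of -1.16 and -1.10. Of the 200 genes it was 76.5% and 88.0%.

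By fitted fold change, the greatest falls among called genes in rRNA-depleted libraries were those of HyS0523.1, HyS0006.344 and HyS0133.7. The first 2 had 0 counts at 7 h, so their fitted values depend on the prior count and their rank is not certain. HyS0523.1 had 28.1 and 21.3 TPM at 4 h, 23.7 TPM at 5 h and 0 counts at both 6 and 7 h, so that it was at least 69.4-fold lower at 7 h against a floor of 3 counts (adjusted p = 0.0274). It had fractional counts, its poly(A)+ levels at 7 h were 0 TPM in clutch B and 14.4 TPM in clutch D, and its call was lost without the 4 h library of clutch A and within clutch B. HyS0006.344 had 3.10 and 4.15 TPM at 4 h and 0 counts at 7 h, at least 2.26-fold lower against the same floor (adjusted p = 0.0166), and neither DESeq2 nor the contrast within clutch B called it. HyS0133.7 had 95.4 and 85.1 TPM at 4 h, 108 TPM at 5 h, 23.2 TPM at 6 h and 4.52 TPM at 7 h (log2 fold change -4.28 ± 0.78, adjusted p = 0.00189). Its coding length, 222 bases, was the shortest of the 200, and it too had fractional counts.

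In poly(A)+ libraries the greatest falls among called genes were those of HyS0407.4, HyS0079.45 and HyS0047.7. HyS0079.45 had 63.4 and 62.2 TPM at 3 h, 13.4 TPM at 6 h and 4.22 and 6.02 TPM at 7 h (log2 fold change -3.55 ± 0.25, adjusted p = 2.31e-08). In rRNA-depleted libraries the same gene went from 118 and 125 TPM at 4 h to 96.8, 21.8 and 13.8 TPM at 5, 6 and 7 h. In the rRNA-depleted series the main drop thus lay between 5 and 6 h. HyS0407.4 went from 7.72 and 4.46 TPM at 3 h to 0 and 0.567 TPM at 7 h (-4.05 ± 1.05, adjusted p = 0.00536, lost with clutch as a block). HyS0047.7 went from 6.93 and 8.76 TPM to 0 and 1.52 TPM (-2.97 ± 0.63, adjusted p = 0.00117), and both genes had fractional counts. Both rest on the 7 h library of clutch D, since that of clutch B was at 0. Without the clutch D library the fitted fold changes, which then depend on the prior count, were -7.74 and -9.84, and without that of clutch B they were -3.65 and -2.36.

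The 5 most abundant of the 200 genes in rRNA-depleted eggs were HyS0064.47, HyS0040.176, HyS0064.48, HyS0006.398 and HyS0048.119. HyS0040.176, the only one of the first 4 without fractional counts, had 2563, 2359 and 2371 TPM in eggs, 1878 TPM at 5 h, 1270 TPM at 6 h and 761 TPM at 7 h. In treated embryos it had 848 and 678 TPM with DMSO and 1754 and 1736 TPM with Triptolide. Its poly(A)+ libraries went from 1102 and 830 TPM with DMSO to 1957 and 2036 TPM with Triptolide (log2 fold change 1.01 ± 0.22, adjusted p = 0.0025). HyS0064.47 and HyS0064.48 stand side by side on their scaffold. With Triptolide their poly(A)+ levels were 2306 and 2546 TPM and 915 and 1084 TPM, against 1578 and 1181 TPM and 666 and 501 TPM with DMSO, and neither was called (adjusted p = 0.18 and 0.108). HyS0048.119, the longest of the 200 at 6351 coding bases, had 742, 1176 and 1198 TPM in rRNA-depleted eggs and 46.7, 56.3 and 62.0 TPM in poly(A)+ eggs. Over the 200 genes the egg level in poly(A)+ differed from that in rRNA-depleted libraries by a median of -0.27 log2 units, with a range from -4.21 to 1.99.

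The third question is what became of these mRNAs in larvae, which the rule touched only through the mean at 24 h. From untreated 7 h embryos to 48 h larvae, 67 of the 200 genes fell further and 54 rose, as against 23.5% of all genes lower and 34.8% higher. Of maternal genes 39.3% fell and 26.4% rose. The median of the 200 was -0.17 log2 units, that of maternal genes -0.21 and that of all genes 0.38. With library size alone, which shifted the median of all genes by -0.44, 90 fell and 37 rose, and the share of higher among all calls went from 59.7% to 45.4%. With RLE, which shifted it by 0.14, 61 fell and 61 rose. DESeq2 called 62 lower and 63 higher. With clutch as a block 44 fell and 43 rose, and the median of the 200 turned to 0.10. Larvae came from clutches E and F and embryos from B and D, so stage and clutch cannot be told apart.

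The levels of the genes in each direction, which this comparison itself chose, are given as a description. The 67 genes that fell had a median of 47.5 TPM in poly(A)+ eggs, 15.9 TPM at 7 h and 3.11, 1.99 and 1.61 TPM at 24, 48 and 72 h, and 26 of them were under 1 TPM at 48 h. The 54 genes that rose had medians of 45.2 TPM in eggs, 11 TPM at 7 h and 14.2, 14.3 and 14.8 TPM in the larval stages, and 6 of them were above their egg level at 48 h. The response to Triptolide in poly(A)+ libraries had a median of 0.83 log2 units in the genes that fell, 0.81 in those that rose and 0.80 in the 79 that were not called. Of these genes, 45 of 67, 35 of 54 and 37 of 79 were called higher with Triptolide.

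By fitted fold change HyS0060.71, HyS0017.192 and HyS0064.74 fell furthest in the 48 h comparison. The first 2 had 0 counts at 48 h, and their fitted values, -10.81 and -9.30, became -8.82 and -7.32 with a prior count of 0.5. Their rank is therefore not certain. HyS0064.47 went from 1848 and 1164 TPM at 7 h to 7.85 and 1.92 TPM at 48 h, a greater fall than the bounds given below for those 2. HyS0064.74 had 363, 331 and 396 TPM in poly(A)+ eggs, 126 and 124 TPM at 7 h, 0.651 and 0.936 TPM at 24 h and 0.229 and 0 TPM at 48 h, where 4 reads were counted in all. Its mean at 7 h was 1090-fold that at 48 h, with an interval of 427 to 4010 from the exact Poisson error of those reads alone (adjusted p = 1.49e-11). With Triptolide the same gene had 247 and 246 TPM, against 162 and 124 TPM with DMSO (log2 fold change 0.75 ± 0.23, adjusted p = 0.0255). HyS0060.71 had 5.99 and 6.78 TPM at 7 h and 0 counts at 48 h, at least 82.4-fold lower against 3 counts per library (adjusted p = 1.66e-10). HyS0017.192 had 3.71 and 4.44 TPM and 0 counts, at least 28.7-fold lower (adjusted p = 4.89e-08). HyS0060.71, HyS0017.192 and HyS0064.74 were all at 0.94 TPM or less in both 24 h libraries.

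HyS0016.280, HyS0004.311 and HyS0407.4 rose most. HyS0016.280 began at 58.6 to 65.1 TPM in poly(A)+ eggs (n = 3), then had 12.1 and 6.52 TPM at 7 h, 43.9 and 34.4 TPM at 24 h and 73.7 and 79.4 TPM at 48 h (log2 fold change from 7 h 3.98 ± 0.33, adjusted p = 1.22e-08). This gene was below its 3 egg libraries at 7 and 24 h and above them at 48 h. HyS0004.311 went from 1.20 and 1.90 TPM at 7 h to 15.7 and 12.2 TPM (3.91 ± 0.37, adjusted p = 4.98e-08), against 10.4 to 13.6 TPM in eggs. HyS0407.4 went from 0 and 0.567 TPM to 2.26 and 3.17 TPM (3.71 ± 1.09, adjusted p = 0.00692), a call lost with clutch as a block. Its fold change was 7.41 without the 7 h library of clutch D and 3.08 without that of clutch B.

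**Figure D4:**
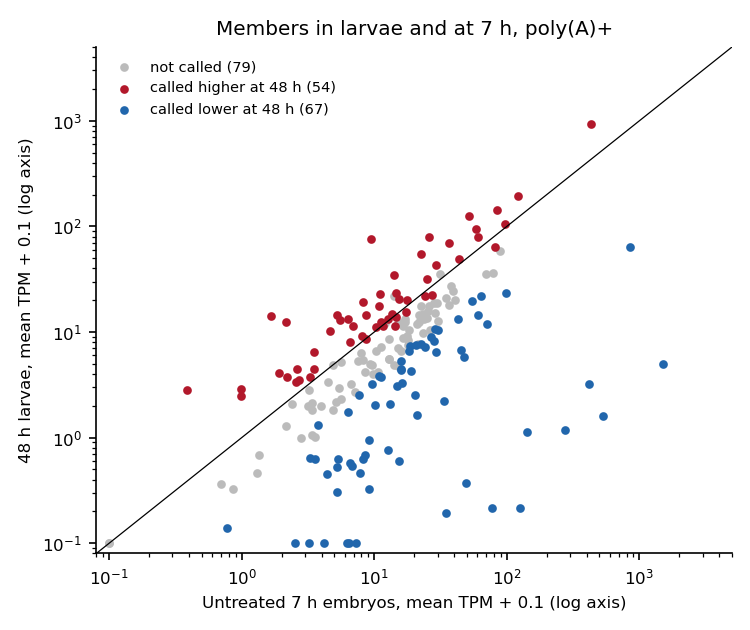
Poly(A)+ level of the 200 genes in untreated 7 h embryos and 48 h larvae (mean TPM + 0.1 over 2 libraries each, log axes, line of equal level), coloured by the edgeR call. The 67 genes called lower reach down to 0 TPM, placed at 0.1, and the 54 called higher lie near or above the line of equal TPM.

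The other candidates met the same condition at 24 h. At that stage 33 of 200 (16.5%) were under 1 TPM, against 15 of 400 (3.75%), and 63 of 200 (31.5%) were under 0.1 of their egg mean, against 37 of 400 (9.25%). Of maternal genes, not all of which met that condition, 2.03% were under 1 TPM and 5.04% under 0.1 of their egg mean. The 200 genes also started lower than the other candidates. Medians were 49.5 and 69.3 TPM in rRNA-depleted eggs and 40.8 and 43.7 TPM in poly(A)+ eggs. These are counts of genes and were not tested.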

How the data were processed

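Per the labels, the authors trimmed reads (Trim Galore 0.6.6, cutadapt 1.15), assigned them with kallisto 0.46.1 to the Hsym v1.0 protein-coding transcriptome and deposited estimated counts per gene model, without rounding or normalization, for 45 libraries. The processing notes also list DESeq2 4.0.3. The 2 pilot libraries entered no comparison. The test on rounded counts was that of edgeR 4.0.16, run under R 4.3.3 (quasi-likelihood F test, two-sided, TMM, genes with a summed count of 10 or more, Benjamini-Hochberg over all genes tested, called at adjusted p under 0.05). Each library type was fitted alone, with 1 mean per stage and treatment: 25 libraries, 14 groups and 18928 genes for poly(A)+, and 18 libraries, 11 groups and 15944 genes for rRNA-depleted. All 200 genes were tested in both. Lone libraries are assumed to vary as the replicated stages do. Every length is a multiple of 3, a coding length without untranslated regions. Figures used matplotlib 3.10.9 in Python 3.11.15. The edgeR steps were tested on simulated data.

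The genes and lists were chosen with earlier results of these data known. Genes are named by rule: those the paper names (no identifier in its text is among the 200, and its annotation tables were not all used here), the 10 with the greatest rule difference, 3 on each side of the limit, the 5 highest in eggs, per comparison the 3 called with the greatest change in each direction without overlap of libraries, and the 3 furthest against the trend with Triptolide. The fall to 7 h in poly(A)+ was measured from 3 h because the rule used 4 h. Alternatives were DESeq2 1.42.0, RLE size factors, scaling by library size alone, no filter, filterByExpr, only the compared groups, clutch as a replicate block, leaving out each library, within-clutch contrasts, a prior count of 0.5 in place of 2 and 4 changes to the rule. The comparison with untreated embryos, that of Triptolide with 3 h and the hourly steps from 5 to 7 h were added after the data were seen. The labels name replicates by collection group, which is where the block comes from. Differences between clutches A and C correlated across maternal genes between 2 and 4 h in rRNA-depleted (r = 0.717) and between 2 and 3 h in poly(A)+ libraries (r = 0.82), whereas those between D and G did not correlate between DMSO and Triptolide in poly(A)+ (r = -0.062). That replicates are separate collections rests on these letters, and p-values measure the spread between them. Intervals and floors cover counting error only.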

Additional observations from a re-analysis of the deposited data

Results flagged for a closer look

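The pilot libraries at 1 h entered no comparison. In the poly(A)+ pilot 199 of the 200 genes had more than 3 counts, and in the pilot without selection 171 had, at totals of 7902891 and 548655 counts. Their median levels were 42.7 and 54.0 TPM, and their medians relative to the poly(A)+ egg mean were 0.11 and 0.25 log2 units. Each pilot is 1 library, and no test was made.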

How the results depend on the processing

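None of the 18 results of single named genes that were run under the alternatives changed sign. Other named results, such as those of HyS0018.47 and HyS0040.176 with Triptolide in poly(A)+ libraries, were not run under them. The median of the 200 genes from 7 to 48 h turned from -0.17 to 0.10 with clutch as a replicate block, and the balance of calls there from 67 lower and 54 higher to 62 and 63 with DESeq2. With Triptolide against DMSO in poly(A)+ libraries, the genes called higher numbered 117, from 46 to 109 when each library was left out, and 80 to 152 under the other alternatives and leave-outs that stayed within 1.5 times. The fall from 4 to 7 h in rRNA-depleted libraries gave 144 to 145 genes without a library. The fall from 3 to 7 h in poly(A)+ libraries gave 150 to 169 without a library and 108 within clutch B. From 7 to 48 h 60 to 73 genes fell and 43 to 52 rose without a library. With clutch as a replicate block 44 genes fell from 7 to 48 h, 3 changed from 2 to 4 h, 21 were lower with Triptolide than at 3 h, 115 fell from 5 to 6 h in rRNA-depleted libraries and 41 fell from 6 to 7 h. Without a library, 34 to 58 were lower with Triptolide than at 3 h. DESeq2 gave 59 genes for 5 to 6 h in poly(A)+ and 11 for 6 to 7 h in rRNA-depleted libraries, where no filter gave 2. The cause was not tested. Changes to the rule shared 147 to 198 of the 200 genes with it, the fewest at a pseudocount of 5 TPM. Of the alternatives for single named genes, 200 stayed on the same side of the threshold, which for HyS0065.27 and HyS3947.1 means not called, 13 lost the call and 3 moved, all 3 with a prior count of 0.5. The fitted fold change of HyS0064.74 from 7 to 48 h, where 1 library is at 0, was -14.07 without the larvae of clutch E and -8.08 without those of clutch F. The libraries of clutch B at 5 to 7 h, with 1 library a stage in most cases and low totals, limit what the hourly steps can show.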
